A study of Arabidopsis thaliana with 24 samples.

Results

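HSFB2A (AT5G62020), HSFB2B (AT4G11660), HSFB4 (AT1G46264) and HSFC1 (AT3G24520) are the class B and class C heat shock transcription factors examined here. They are 4 of the 33602 genes in the deposited table, taken by their identifiers, and were chosen with earlier results of these data known. The table holds read counts of polyA RNA from whole 3-day-old Arabidopsis thaliana seedlings of the Columbia background, and 12 libraries were used, 3 in each of 4 groups. Every group had 3 h of white light at 22 °C to induce germination and then 3 days of darkness at 22 °C. WT at 22 °C and the pif4 mutant at 22 °C stayed there for a further 3 h, and the remaining WT and pif4 groups spent those 3 h at 37 °C. The mutated gene, PIF4, encodes a bHLH transcription factor through which light and temperature act on growth, and the labels used here do not name the allele. The libraries are called biological triplicates, but whether they came from separate sowings is not said, and the p-values below cover the spread among these libraries only.

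Heat shock factors bind heat shock elements, inverted repeats of nGAAn units, through a winged-helix domain and act as trimers. Class A factors carry an activation domain and switch on chaperone genes when proteins unfold. Class B factors lack that domain, and several of them carry a repression motif in the C-terminal part and recruit co-repressors of the TOPLESS family. HSFB2B and its relative HSFB1 are known in Arabidopsis as heat-induced repressors that attenuate the heat shock response. HSFB2A is known for a part in gametophyte development, HSFB4 is SCHIZORIZA, a determinant of root ground tissue and stem cell fate, and HSFC1, the single class C factor of Arabidopsis, is known as an early cold-induced regulator.

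All 4 genes lie on the + strand of the RefSeq assembly TAIR10.1. HSFB2A spans chromosome 5 from 24915807 to 24917643, HSFB2B chromosome 4 from 7042354 to 7044708, HSFB4 chromosome 1 from 17224720 to 17226541 and HSFC1 chromosome 3 from 8941066 to 8942874. The sequences below show the stretches before the coding start that hold heat shock element letters, since these are the motif that the family itself binds. Each was read from RefSeq TAIR10.1, lies on the + strand in the annotated transcript before the coding start (the 5′ UTR), and has the GAA and TTC units in capitals.
HSFB2A, chr5:24916060-24916084: ccatagGAAgtTTCttGAAgcctaa
HSFB2B, chr4:7042452-7042476: aaaagaGAAacTTCtgGAAaaagaa
HSFB2B, chr4:7042611-7042630: gttgtcTTCtgGAActtccg
HSFB2B, chr4:7042672-7042696: ctctcaGAAcaTTCtgGAActtcac
HSFB4, chr1:17224883-17224902: ctctctTTCtcGAActctct

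The letters searched were GAANNTTC or TTCNNGAA for an element of 2 units, on both strands, and the same with a further unit after another NN (GAA, TTC, GAA or TTC, GAA, TTC) for 3 units, so every 3-unit match also holds 2-unit matches. In the 300 bases before the annotated gene start none of the 4 genes held either element, against 0.485% of 27443 genes for 3 units and 19.3% for 2 units. The window was then widened to the 700 bases before the coding start, a choice made after the first result had been seen. There HSFB2A held a 3-unit match and HSFB2B held 2 of them, an element that 1.6% of all genes had in this window. HSFB4 held a 2-unit match, as 42.9% of genes did, and HSFC1 held neither. Among all 21 heat shock factor genes of the annotation 5 had a 3-unit match in this window, which were HSFB2A, HSFB2B, HSFA2, HSFA7A and HSFA7B, and 15 had a 2-unit match. A match is a run of letters and not a measured binding site.

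**Figure D1:**
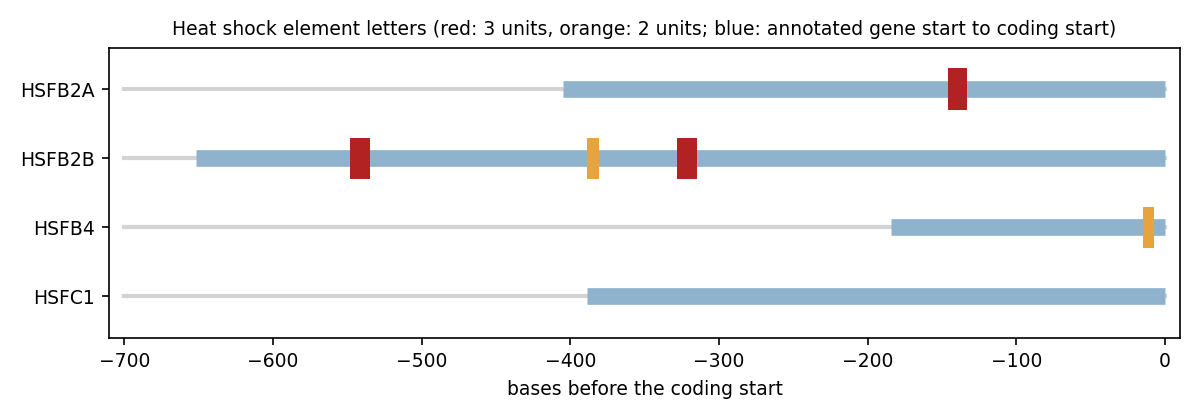
Positions of heat shock element letters in the 700 bases before the coding start of each gene (horizontal axis, bases before the coding start), with 3-unit matches in red and 2-unit matches outside them in orange, and the stretch from the annotated gene start to the coding start in blue. HSFB2A has 1 red mark and HSFB2B has 2, HSFB4 has an orange mark only, and HSFC1 has none.

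Library totals ranged from 3176106 to 14791597 reads at 22 °C and from 3360759 to 10662414 at 37 °C. Levels are CPM, reads brought to a common library size after TMM scaling, which sets the bulk of genes level between libraries. The TMM factors lay between 1.3 and 1.5 in every library at 22 °C and between 0.678 and 0.734 in every heated library, so the size of any heat effect depends on them. PIF4 itself read 7.81 to 13.3 CPM in WT at 22 °C against 11.2 to 24 CPM in pif4. In heated libraries it read 22.1 to 33.3 CPM in WT against 21.6 to 22.6 CPM in pif4. PIF4 reads at 22 °C were thus no lower in the mutant group and do not check its labels. The seedlings were sampled whole, so a change in RNA per cell and a change in the share of cells that hold the RNA cannot be told apart.

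HSFB2A and HSFB2B rose 17.8-fold and 21.7-fold in heated WT seedlings, HSFB4 rose 2.37-fold, and HSFC1 did not pass the test. The 3 class B genes rose in pif4 as well. An adjusted p under 0.05 in edgeR's quasi-likelihood test over 18774 genes counted as a call. In WT 51.5% of all genes tested were called and 25.5% were called higher and 26% lower, and in pif4 49.7% were called, 25.6% higher and 24.1% lower. The 3 of 4 genes called higher, with none lower, stand against that background. Of the heat calls 49.6% in WT and 51.5% in pif4 were higher, and with total counts as the library size 13.3 and 13.1%.

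HSFB2A had 12.9, 8.80 and 11.2 CPM in libraries a, b and c of WT at 22 °C and 213, 171 and 187 CPM at 37 °C. In pif4 it had 9.45, 11.3 and 9.77 CPM at 22 °C and 207, 182 and 190 CPM at 37 °C. Every heated library lay far above every library at 22 °C, and the genotypes overlapped at both temperatures. Heated libraries all lay above those at 22 °C for 27.3% of all genes in WT and 29.1% in pif4. The log2 fold change was 4.15 ± 0.17 in WT (SE, n = 3 against 3, edgeR adjusted p = 6.43e-14) and 4.24 ± 0.18 in pif4 (n = 3 against 3, edgeR adjusted p = 5.83e-14).

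HSFB2B, the repressor that attenuates the heat response, was at 3.21, 5.63 and 3.48 CPM in WT and at 4.85, 5.11 and 5.97 CPM in pif4 at 22 °C. At 37 °C it was at 86.7, 94.6 and 97.6 CPM in WT and at 114, 110 and 123 CPM in pif4. The temperatures did not overlap, as was so in the higher direction for 27.3% of all genes in WT and 29.1% in pif4. At 37 °C each pif4 library lay above each WT library, as for 7.48% of all genes, and the difference was not called. The log2 fold change was 4.44 ± 0.21 in WT (SE, n = 3 against 3, edgeR adjusted p = 3.34e-13) and 4.41 ± 0.21 in pif4 (n = 3 against 3, edgeR adjusted p = 3.78e-13). Part of HSFB2B, 308 bases, is shared with AT4G11670 on the opposite strand, which held 975 reads over the 6 libraries at 22 °C and 110 over those at 37 °C. The long non-coding RNA gene AT4G05910 shares 352 bases with HSFB2B, also on the opposite strand, and has no counts to compare. Whether counting used strand is not stated. HSFB2B itself held 363 reads at 22 °C and 3319 at 37 °C.

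HSFB4, the root patterning factor, was rare. It had 2.53, 3.22 and 2.24 CPM in WT at 22 °C and 4.25, 5.06 and 9.29 CPM at 37 °C, from 10 to 64 reads a library. In pif4 it had 3.88, 2.8 and 4.22 CPM at 22 °C and 7.43, 8.68 and 14.7 CPM at 37 °C, from 16 to 87 reads a library. The temperatures did not overlap in either genotype, as was so for 27.3% of all genes in the higher direction in WT and 29.1% in pif4, and library c was the highest of each heated group. The log2 fold change was 1.24 ± 0.42 in WT (SE, n = 3 against 3, edgeR adjusted p = 0.0191) and 1.5 ± 0.41 in pif4 (n = 3 against 3, edgeR adjusted p = 0.00515). In WT it was 0.81 without library c at 37 °C (edgeR adjusted p = 0.148) and 1.11 without library c at 22 °C (edgeR adjusted p = 0.0762), which ended the call. With total counts as the library size it was 0.21 in WT (edgeR adjusted p = 0.667) and 0.46 in pif4 (edgeR adjusted p = 0.326), where the median of all genes was at -1.13 in both.

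HSFC1 was the least responsive of the 4 by fold change. It had 3.44, 2.71 and 2.56 CPM in WT at 22 °C and 4.25, 2.97 and 4.11 CPM at 37 °C, and in pif4 4.12, 2.68 and 1.57 CPM at 22 °C and 2.40, 6.14 and 6.76 CPM at 37 °C. The temperatures overlapped in both genotypes. The log2 fold change was 0.39 ± 0.52 in WT (SE, n = 3 against 3, edgeR adjusted p = 0.557) and 0.96 ± 0.51 in pif4 (n = 3 against 3, edgeR adjusted p = 0.129), and neither was called. With total counts as the library size it was -0.63 (edgeR adjusted p = 0.275) and -0.0588 (edgeR adjusted p = 0.922). A change was not detectable at the 10 to 56 reads a library that HSFC1 gave, and the long non-coding RNA gene AT3G24518 covers 1808 bases of it on the opposite strand, with 28 reads over the libraries at 22 °C and 32 over those at 37 °C.

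**Figure D2:**
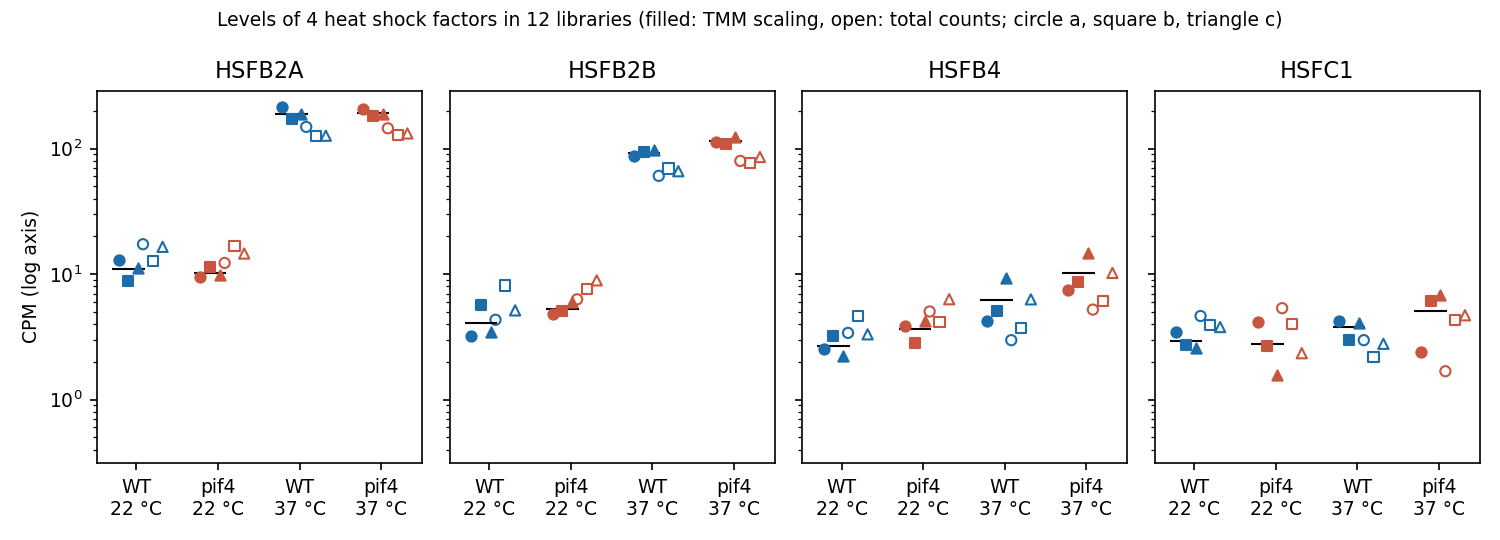
CPM of each gene in each library (log axis), by group, with circles, squares and triangles for libraries a, b and c, filled marks for TMM scaling with a bar at the group mean, and open marks for CPM of the total count. The heated libraries of HSFB2A (171 to 213 CPM) and HSFB2B (86.7 to 123 CPM) lie far above those at 22 °C on either scale, while HSFB4 and HSFC1 stay below 15 CPM.

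**Figure D3:**
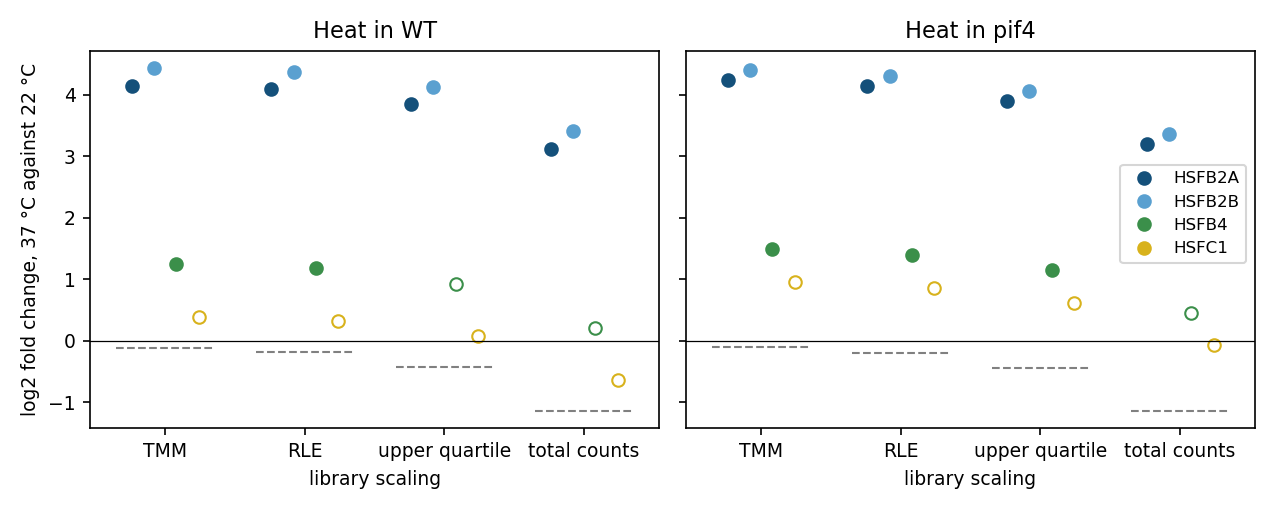
Log2 fold change of each gene with heat (vertical axis) under 4 library scalings (horizontal axis), in WT and in pif4, with filled marks for an adjusted p under 0.05 and a dashed line at the median of all genes tested. HSFB2A and HSFB2B stay filled under all 4, HSFB4 opens under total counts in both genotypes and under upper quartile scaling in WT, and HSFC1 is open throughout.

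Ratios between the genes within a library do not depend on the scaling. The log2 ratio of HSFB2A to HSFB4 reads lay between 1.45 and 2.35 in WT at 22 °C and between 4.33 and 5.65 in heated WT. In pif4 it lay between 1.21 and 2.02 at 22 °C and between 3.69 and 4.80 in heat. The ratio thus lay higher in every heated library than in any library at 22 °C. An exact permutation test over libraries within genotype (two-sided, 400 arrangements, 6 per temperature) gave p = 0.005, the smallest it can give, and 0.0075 after adjustment over 6 pairs. The mean shift was 2.89 on the log2 scale for this pair, 3.19 for HSFB2B to HSFB4, 3.58 for HSFB2A to HSFC1 and 3.89 for HSFB2B to HSFC1, each with the same p. The ratio of HSFB2A to HSFB2B shifted by -0.31 (exact permutation p = 0.2) and that of HSFB4 to HSFC1 by 0.70 (exact permutation p = 0.065, adjusted 0.078). HSFB2A and HSFB2B thus gained on HSFB4 and on HSFC1 whatever the scaling, and a shift within either of these pairs was not detected.

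Per kilobase of coding sequence HSFB2A led in every group. The bases over which reads were counted are not known and may include untranslated ones, so this scale compares genes only roughly. It had 12.2 ± 2.27 CPM per kb (SD, n = 3) in WT at 22 °C, HSFB2B 3.62 ± 1.17, HSFC1 2.93 ± 0.475 and HSFB4 2.54 ± 0.479, and neighbours among the last 3 differed by less than the larger of their SDs. In WT at 37 °C HSFB2A reached 212 ± 23.6 CPM per kb and HSFB2B 82.0 ± 4.93, while HSFB4 had 5.92 ± 2.59 and HSFC1 3.8 ± 0.71, which did not differ beyond their spread. In pif4 the values at 22 °C were 11.3 ± 1.11 for HSFB2A, 4.68 ± 0.517 for HSFB2B, 3.47 ± 0.708 for HSFB4 and 2.81 ± 1.29 for HSFC1, where the last 2 again differed by less than the larger SD. At 37 °C they were 214 ± 14.2, 102 ± 6.13, 9.81 ± 3.71 and 5.14 ± 2.38 in the same order.

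The pif4 libraries did not differ detectably from WT for any of the 4 genes. At 22 °C 0.0852% of all genes were called between the genotypes and at 37 °C 0.0533%. HSFB2B had the lowest adjusted p at 37 °C, with a log2 fold change of pif4 over WT of 0.31 ± 0.17 (SE, n = 3 against 3, edgeR adjusted p = 0.557). Its pif4 libraries all lay above its WT libraries there, as they did for 7.48% of all genes. HSFB4 had 0.70 ± 0.41 (edgeR adjusted p = 0.594), HSFC1 0.47 ± 0.52 (edgeR adjusted p = 0.837) and HSFB2A 0.02 ± 0.15 (edgeR adjusted p = 0.985). At 22 °C the values were -0.06 ± 0.17 for HSFB2A, 0.34 ± 0.22 for HSFB2B, 0.44 ± 0.42 for HSFB4 and -0.10 ± 0.51 for HSFC1, each with an edgeR adjusted p = 1. The difference of the heat effects, pif4 minus WT, was 0.09 ± 0.23 for HSFB2A, -0.03 ± 0.27 for HSFB2B, 0.25 ± 0.59 for HSFB4 and 0.57 ± 0.73 for HSFC1, and the adjusted p of each was at least 0.993. In that comparison edgeR called 0 of all genes (0%), with 1025 at an unadjusted p under 0.05, and DESeq2 called 2.

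Among the other heat shock factors 16 of 17 had values and 13 were tested, and 9 of these rose and 1 fell with heat in each genotype, where 25.5% of all genes were called higher and 26% lower in WT and 25.6% and 24.1% in pif4. Their median log2 fold change was 1.44 in WT and 1.60 in pif4, where that of all genes was -0.12 and -0.10. HSFA6A, HSFA9 and HSFB3 did not pass the low-count filter and were not tested. Over the 3 libraries at 22 and 37 °C, HSFA6A had 28 and 0 reads in WT and 7 and 1 in pif4. HSFB3 had 19 and 3 in WT and 28 and 0 in pif4, and HSFA9 had 0 and 0 in WT and 0 and 3 in pif4. With total counts, which called 9.51% of all genes higher and 62% lower in WT and 9.35% and 62% in pif4, 6 factors rose and 2 fell in WT and 7 rose and 2 fell in pif4. HSFA2, the amplifier of the class A response, rose most, from 1.39 ± 0.748 to 2064 ± 265 CPM (SD, n = 3) in WT, by 10.49 ± 0.32 on the log2 scale (edgeR adjusted p = 8.86e-16), and by 12.62 ± 0.37 in pif4. HSFA7B rose by 4.69 ± 0.19 in WT and 5.06 ± 0.19 in pif4, and HSFA1D, one of the constitutive activators that start the response, by 4.05 ± 0.20 and 4.03 ± 0.20, so HSFB2A and HSFB2B stood beside these. HSFA5 was the gene that fell in WT, by 1.06 ± 0.27, and had 0.59 ± 0.26 in pif4, which was not called. HSFA1B was the one that fell in pif4, by 1.37 ± 0.38, and had 0.12 ± 0.37 in WT, which was not called and was -0.89 with total counts. The 4 tested factors with the highest fold changes in WT (HSFA2, HSFA7B, HSFB2B and HSFB2A) were all among the 5 genes with a 3-unit element before the coding start, and the other, HSFA7A, rose by 1.26 ± 0.21. HSFA1D, next in that order, had a 2-unit match only. HSFA3, which came after it and was named after its values were seen, held neither element. It rose by 3.81 ± 0.19 in WT and 3.58 ± 0.20 in pif4. In pif4 the order differed. HSFA6B, named after its values were seen, rose there by 4.34 ± 0.52, between HSFB2B and HSFB2A, and had a 2-unit match only. It rose by 3.15 ± 0.45 in WT. HSFA6B passed the low-count filter only with its heated libraries, so the counts of rises hold it by design. Whether the element bears on the rise was not tested.

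**Figure D4:**
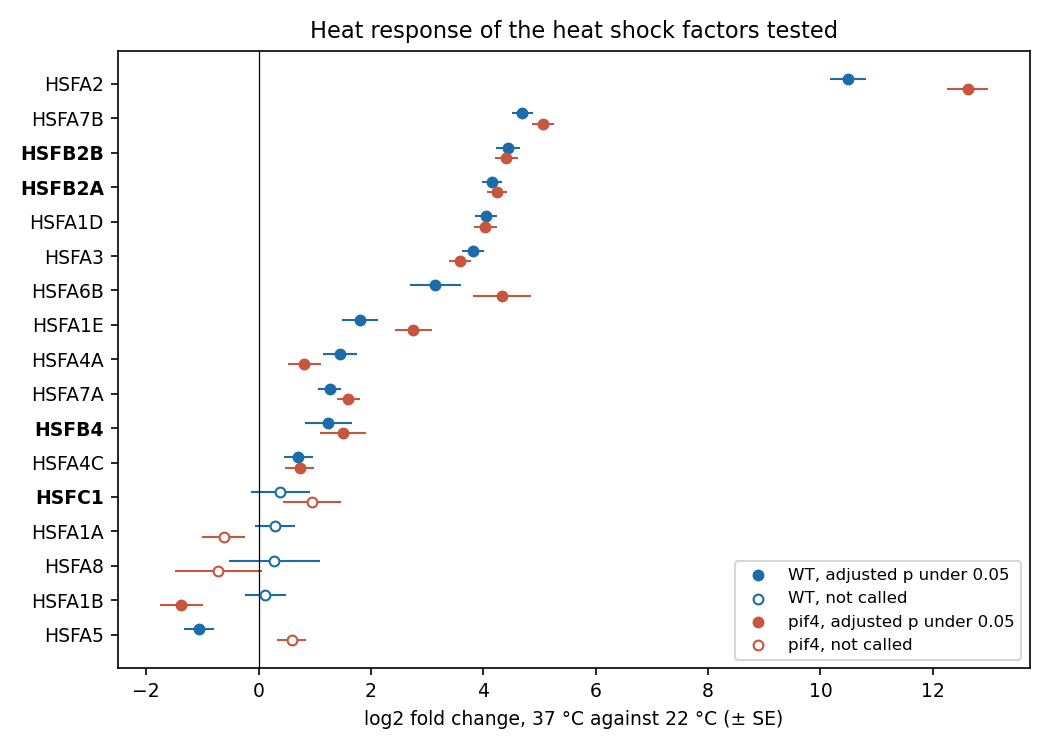
Log2 fold change with heat (horizontal axis, ± SE, 3 against 3 libraries) of the 17 heat shock factor genes tested, in WT (blue) and pif4 (red), with filled marks for an adjusted p under 0.05 and the class B and C genes in bold. HSFB2B and HSFB2A lie next below HSFA2 and HSFA7B in WT, and HSFC1 is open in both genotypes.

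HSFB1 had no value, so class B is counted here without it. As a share of the reads of the 20 heat shock factor genes with values, these class B genes held less in heated seedlings although 3 of them rose. Nothing can be said of the class with HSFB1 included. Class B took 14.2 to 14.9% of these reads in WT at 22 °C and 9.19 to 10.5% at 37 °C, and 14.3 to 18.9% and 8.43 to 8.86% in pif4. HSFA2 alone took 0.531 to 1.76% in WT at 22 °C and 68.3 to 72.4% at 37 °C, and 0.217 to 0.752% and 73.8 to 76.1% in pif4. HSFC1 took 2.10 to 2.70% in WT at 22 °C and 0.113 to 0.147% at 37 °C. HSFB2B held 2.52 to 4.57% at 22 °C and 2.99 to 3.61% at 37 °C in WT, which overlap, and 3.76 to 5.37% and 3.07 to 3.17% in pif4, which do not. These are shares of reads and not of molecules, since longer transcripts give more reads, and no test was run on them.

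**Figure D5:**
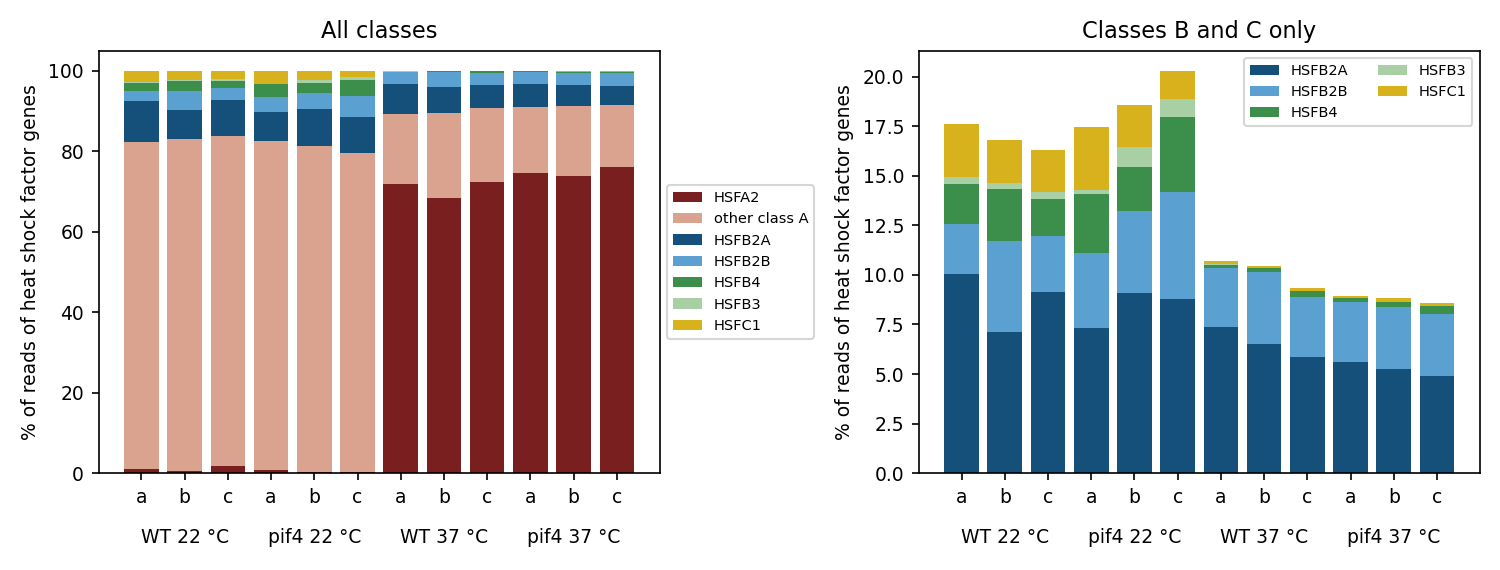
Share of the reads of 20 heat shock factor genes in each library, for HSFA2, other class A genes, each class B gene with values and HSFC1. HSFB1 had no value. The vertical axis is in percent from 0, and classes B and C alone are on an enlarged axis at the right. HSFA2 takes 68.3 to 76.1% in heated libraries and under 2% at 22 °C, and the bars of classes B and C together are shorter there, while those of HSFB2B overlap between temperatures in WT (2.52 to 4.57% and 2.99 to 3.61%) and are shorter in heated pif4 (3.07 to 3.17% against 3.76 to 5.37%).

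The tested genes among those reported as targets of class B repression were higher in heat, at the same time as HSFB2A and HSFB2B. Of 7 listed, 4 were tested and all 4 rose in both genotypes, against 25.5% of all genes called higher in WT and 25.6% in pif4, with a median log2 fold change of 5.57 in WT and 5.70 in pif4. HSFA2 and HSFA7A, which also stand among the heat shock factors above, are 2 of them. Of the listed genes not tested, HSFB1 had no value, and PDF1.2A and PDF1.2B had 0 reads in every library. HSP15.7, a small heat shock protein, rose by 8.37 ± 0.21 in WT and 7.80 ± 0.20 in pif4, and PRR7, a clock repressor, by 2.77 ± 0.19 and 3.6 ± 0.20. HSFA7A rose by 1.60 ± 0.21 in pif4, and its WT value was 0.25 with total counts (edgeR adjusted p = 0.269).

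Of the 5 TOPLESS family co-repressors 3 fell and none rose in each genotype, against 26% of all genes called lower in WT and 24.1% in pif4. Their median log2 fold change was -0.74 in WT and -1.38 in pif4. With total counts all 5 fell in both, as 62% of all genes did in each. TPR1 fell most, from 55.9 ± 8.79 to 11 ± 2.13 CPM (SD, n = 3) in WT, by 2.32 ± 0.23 on the log2 scale (edgeR adjusted p = 5.88e-08), and by 2.15 ± 0.23 in pif4. TPR2 fell by 2.18 ± 0.26 and 1.60 ± 0.24. TPL itself fell by 0.48 ± 0.17 in WT (edgeR adjusted p = 0.0236), a call lost without library b or c at 22 °C or library c at 37 °C (-0.47, -0.44 and -0.30), and had -0.08 ± 0.17 in pif4. TPR3 had -0.74 ± 0.45 in WT, which was not called, and fell by 1.38 ± 0.47 in pif4 (edgeR adjusted p = 0.0193), a call lost without library a or c at 22 °C or library b at 37 °C (-1.25, -1.34 and -0.97).

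Regulators of root ground tissue and stem cells, the setting in which HSFB4 is known, were called lower in heat or not called. Of 10 listed, 6 were tested, and 2 fell and none was called higher in each genotype, against 26% of all genes called lower and 25.5% higher in WT and 24.1% and 25.6% in pif4. Their median log2 fold change was -0.94 in WT and -0.49 in pif4. MGP, CYCD6;1, PLT1 and FEZ did not pass the low-count filter and were not tested. Over the 3 libraries at 22 and 37 °C, MGP had 63 and 3 reads in WT and 14 and 2 in pif4. CYCD6;1 had 32 and 0 in WT and 52 and 0 in pif4, and PLT1 had 40 and 0 in WT and 12 and 2 in pif4. FEZ had 4 and 0 in WT and 0 and 1 in pif4. PLT2 and SMB passed the low-count filter through libraries at 22 °C only, so the counts of falls hold them by design. JKD, a zinc finger partner of SHR and SCR, fell by 1.62 ± 0.18 in WT and 1.53 ± 0.17 in pif4. PLT2, a root stem cell factor, went from 49 reads over the 3 WT libraries at 22 °C to 0 at 37 °C, and from 17 to 6 in pif4, where it was not called. SMB, a root cap factor, fell by 3.08 ± 1.18 in pif4 (edgeR adjusted p = 0.037), a call lost on leaving out any of 5 of the 6 libraries, library a at 37 °C being the exception (-3.11 to -2.35 without the 5), and had -2.23 ± 1.23 in WT, which was not called. WOX5, a stem cell niche factor named after its values were seen, had the highest fold change of the list, 1.86 ± 1.22 in WT (edgeR adjusted p = 0.211) and 2.72 ± 1.14 in pif4 (edgeR adjusted p = 0.0538), and was not called. It rested on 9 and 14 reads over the 3 WT libraries at 22 and 37 °C and on 8 and 45 in pif4. It was called on leaving out library a at 22 °C, with 3.31 in WT (edgeR adjusted p = 0.0492) and 4.18 in pif4 (edgeR adjusted p = 0.0201), and in pif4 with the compared groups alone (2.8, edgeR adjusted p = 0.0175). With total counts 5 genes of the list fell in WT and 4 in pif4, against 62% of all genes in each.

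The tested cold-regulated genes, from the setting in which HSFC1 is known, were higher in heat while HSFC1 was not called. Of 9 listed, 6 were tested, all 6 rose in WT and 4 in pif4, against 25.5% and 25.6% of all genes called higher, with a median log2 fold change of 3.75 in WT and 3.82 in pif4 (3.6 with CBF3 at its bound). KIN1, a small hydrophilic protein of cold and dehydration, rose by 7.25 ± 0.28 in WT and 6.75 ± 0.27 in pif4, although its near-identical neighbour KIN2 can share its reads. COR47, a dehydrin, rose by 3.56 ± 0.20 and 3.83 ± 0.20. CBF3, an activator of cold acclimation, had 0 reads over the 3 libraries of each genotype at 22 °C and 21 in WT and 19 in pif4 at 37 °C. It thus passed the low-count filter through heated libraries only and could not be called lower, so the counts of rises hold it by design. CBF1, COR15A and COR15B were not tested. At 22 and 37 °C CBF1 had 10 and 13 reads in WT and 2 and 15 in pif4. COR15A had 0 and 4 in WT and 0 in pif4, and COR15B had 0 throughout. GOLS3 had the smallest rise in WT, 1.71 ± 0.68 (edgeR adjusted p = 0.0426), and 1.76 ± 0.73 in pif4, which was not called. The WT call was lost on leaving out any of 5 of the 6 libraries, library b at 37 °C being the exception, with values of 1.38 to 2.10, and that of CBF3 in pif4 without library c at 37 °C (edgeR adjusted p = 0.0545). With total counts 4 rose in each genotype, against 9.51% of all genes in WT and 9.35% in pif4.

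The genes nearest in profile to each factor were taken as those with the smallest root mean square difference of centred log2 CPM over the 12 libraries among 17852 genes of at least 1 CPM. AT2G39020 (0.161), GSTF8, a glutathione transferase (0.170), and TXR1, annotated as a Pam16 protein transporter (0.175), lay nearest to HSFB2A. TPR10, an ankyrin repeat family gene (0.170), ERABP1, the auxin binding protein ABP1 (0.201), and AT5G11680 (0.227) lay nearest to HSFB2B. For HSFB4 they were AT5G05965 (0.230), AMSH3, a deubiquitinase (0.265), and HGO, homogentisate dioxygenase (0.280). For HSFC1 they were the lectin kinase gene LECRK82 (0.268), LA2, an RNA recognition motif gene (0.274), and AT1G13190 (0.275). None of the 12 genes is a heat shock factor.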

How the data were processed

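Counts per gene are as deposited, whole numbers per the file headers, with genome build TAIR10 per the submitters' processing notes. No source used here names the aligner, the counter or its strand setting. Of 33602 genes 1274 had no value, and 32835 identifiers matched RefSeq TAIR10.1. Column names tie 12 libraries to their groups but not to replicate numbers, so libraries carry their letters a, b and c. Another 36 per-sample columns were not used, of which 24 belong to 12 libraries whose codes no label ties to a PIF4-L line and 12 hold length-corrected values. So 5 of 12 planned comparisons were run.

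Differences were tested on these counts in R 4.3.3 by edgeR 4.0.16 (genes kept by filterByExpr on the groups, TMM, robust quasi-likelihood F test, two-sided, all 12 libraries in 1 fit, Benjamini-Hochberg over 18774 genes). The SE was derived as log2 fold change over the root of F. DESeq2 1.42.0, other scalings and filters, a replicate block and leaving out each library were alternatives. The fit was tested on simulated data. The members and gene lists were chosen with earlier results of these data known. The text names the 4 members, the highest and lowest called genes of each list, listed genes tied to a member, and the 3 nearest profiles of each member. HSFA3, HSFA6B, WOX5 and some listed genes that were not tested are named besides.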

Additional observations from a re-analysis of the deposited data

How the results depend on the processing

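HSFB2A and HSFB2B kept their heat calls in both genotypes under every alternative run. Leaving out 1 library gave 4.0 to 4.24 for HSFB2A and 4.27 to 4.77 for HSFB2B in WT, and 1.15 to 1.67 for HSFB4 in pif4, which stayed called.

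The number of genes called between genotypes moved with the processing. At 22 °C it was 16, and 8 with total counts, 52 with no low-count filter, 91 with DESeq2, 48 with a fit that was not robust, 6 with the compared groups alone, and 3 to 40 without 1 library. At 37 °C it was 10, and 76 with no filter, 159 with DESeq2 and 2 to 18 without 1 library. For the difference of the heat effects it was 0, and 2 with no filter, 2 with DESeq2 and 0 to 1 without 1 library. With a replicate block by letter it was 27 at 22 °C and 55 at 37 °C. Same-letter libraries deviated together only weakly (r from -0.083 to 0.258, median 0.069, 4 of 18 pairs over 0.1). Pairs of unlike letters had a median r of -0.033, with 1 of 36 over 0.1. Whether the letters pair the samples is therefore not settled, and the reported fit holds no block. With the block the rise of WOX5 in heated pif4 was called (3.21, edgeR adjusted p = 0.0249). That was the only call it changed among the named genes followed through the alternatives. None of the 4 factors was called between genotypes under any of these. The cause was not tested.

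Of the heat calls, 49.6% were higher in WT and 51.5% in pif4, against 13.3 and 13.1% with total counts and 34.5 and 34.0% with upper quartile scaling. Total counts put the mean CPM of HSFB2A at 15.5 and 134 in WT (22 and 37 °C) and 14.6 and 135 in pif4, of HSFB2B at 5.86 and 65.4 in WT and 7.61 and 80.9 in pif4, of HSFB4 at 3.78 in WT and 5.17 in pif4 at 22 °C, and of HSFC1 at 4.11 and 2.64 in WT. HSFB4 in WT was 0.93 with upper quartile scaling (edgeR adjusted p = 0.0704).

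Directions that reversed belonged to values that were not called in the reported fit. HSFC1 with heat became -0.63 in WT and -0.0588 in pif4, HSFA1B in WT -0.89 and HSFA5 in pif4 -0.46 with total counts, and HSFA1B in WT -0.18 with upper quartile scaling; that of HSFA1B with total counts was then called. HSFB2A in pif4 over WT at 37 °C became -0.0150 with size factors, -0.0242 with upper quartile scaling, -0.0137 with DESeq2 and -0.0129 with the compared groups alone. Without 1 library, HSFA1B in WT ranged from -0.28 to 0.40, PLT2 in pif4 from -1.97 to 0.0366, pif4 over WT for HSFB2A from -0.21 to 0.0307 at 22 °C and -0.0484 to 0.11 in heat, and for HSFC1 from -0.44 to 0.23 at 22 °C. The difference of heat effects then ranged from -0.0065 to 0.24 for HSFB2A, -0.36 to 0.14 for HSFB2B and -0.0936 to 0.68 for HSFB4. HSFB4 and HSFC1 rest on 10 to 87 reads a library. The alternatives planned for the PIF4-L lines were not run.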
